A study of Mus musculus with 6 samples.

Results

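Isg15, Ifit1, Rsad2, Gbp2, Slfn4 and Ifi27l2a were followed as interferon-stimulated genes of the immune cells of metastatic mouse liver. They are 6 of the 5301 genes held by at least 1 of the 3 deposited matrices. They were picked by symbol alone, with no threshold on a measured value, and each matrix held all 6. The matrices hold selected variable genes, and the adjacent tissue matrix has 4486 of them, the micrometastasis matrix 2669 and the macrometastasis matrix 2643.

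The samples were single-cell libraries (10x Genomics 3' chemistry) of cells sorted by fluorescence for the pan-leukocyte surface protein CD45, from liver pieces of Balb/c mice. The mice had received 4T07 cells (spelled 4TO7 in the labels), a mouse mammary tumour line, by intracardiac injection, either control cells (Ctrl) or cells with an shRNA knockdown of Tim3 (Tim3-KD). Tumour-free adjacent tissue and micrometastasis were taken on day 3 and macrometastasis on day 12, each with both tumour lines, which gave 6 libraries. Each library combined liver cells from a pair of mice and stood alone in its group, so no comparison below has a replicate check, none carries a p-value, and library, pool and group cannot be told apart. All mice of the series carried tumour cells, and no library of a liver without injection was analysed here. Since only tumour cells carried the knockdown and the sort kept CD45+ cells, the targeted gene could not be checked. Tim3 (Havcr2) molecules (UMIs, unique molecular identifiers) in these libraries came from the sorted cells and amounted to 4.14 to 15.6 CPM (UMIs of a gene per 1000000 UMIs of all genes in the same cells).

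Interferons are secreted proteins that cells release on sensing viral or other foreign nucleic acid, or, for interferon-gamma, mainly from activated T and natural killer cells. Type I interferons act through receptor-bound kinases and a transcription factor complex that binds the interferon-stimulated response element (ISRE), and interferon-gamma target genes are known for the gamma-activated site (GAS). The genes switched on in this way slow viral replication, and in liver they are expressed by resident macrophages (Kupffer cells), by endothelium and by incoming myeloid cells. Isg15 encodes a ubiquitin-like protein that is joined to other proteins. Ifit1 encodes an RNA-binding protein that blocks translation of foreign RNA, and Rsad2 encodes viperin, a radical SAM enzyme that makes a chain-terminating nucleotide. Gbp2 encodes a guanylate-binding GTPase that coats pathogen compartments and is a classical interferon-gamma target. Slfn4 encodes a member of the mouse schlafen family that is known from myeloid cells. Ifi27l2a encodes a small hydrophobic protein of the Ifi27 family.

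The promoters of 5 of the 6 genes were matched in RefSeq (GRCm38.p6) and are shown because the ISRE is the element these genes are known to share. Ifi27l2a was not matched. Each line gives 110 bases, from 150 to 41 bases before the annotated start, 5′ to 3′ on the gene's strand, and capitals mark matches to the ISRE letters (GAAA, any pair of bases, then GAAA) on either strand.
Isg15 (chr4:156200859-156200968, - strand): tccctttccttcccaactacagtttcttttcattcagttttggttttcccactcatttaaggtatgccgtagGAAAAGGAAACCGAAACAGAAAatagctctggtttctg
Ifit1 (chr19:34640739-34640848, + strand): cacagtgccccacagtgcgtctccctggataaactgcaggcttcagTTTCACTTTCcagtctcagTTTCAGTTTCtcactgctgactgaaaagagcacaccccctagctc
Rsad2 (chr12:26456493-26456602, - strand): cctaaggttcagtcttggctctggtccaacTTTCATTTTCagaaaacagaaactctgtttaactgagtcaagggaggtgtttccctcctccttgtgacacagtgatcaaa
Gbp2 (chr3:142620513-142620622, + strand): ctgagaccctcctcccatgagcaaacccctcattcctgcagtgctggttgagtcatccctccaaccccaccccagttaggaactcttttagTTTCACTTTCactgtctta
Slfn4 (chr11:83175036-83175145, + strand): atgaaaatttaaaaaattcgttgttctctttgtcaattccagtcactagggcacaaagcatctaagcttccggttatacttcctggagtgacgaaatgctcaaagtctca

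Isg15 held 3 overlapping ISRE matches between 78 and 57 bases before its start. Ifit1 held 2, Rsad2 and Gbp2 held 1 each, and Slfn4 held none. In the whole RefSeq window, from 250 bases before to 50 after the start, 4 of the 5 promoters held an ISRE match, against 3.44% of the 32851 promoters in the table. None of the 5 held the GAS letters TTCNNNGAA, which 8.30% of all promoters hold. A match describes the letters only. Distances are from the RefSeq starts. The gene spans are those of the GENCODE annotation, which starts at the same base for Isg15, Rsad2 and Slfn4 but 18 bases further upstream for Ifit1 and 61 for Gbp2, so the marked Gbp2 match lies inside its GENCODE span. In GRCm38 the genes span chr4:156199424-156200818 (Isg15, - strand), chr19:34640871-34650009 (Ifit1, + strand), chr12:26442746-26456452 (Rsad2, - strand), chr3:142620602-142638008 (Gbp2, + strand), chr11:83175186-83190216 (Slfn4, + strand) and chr12:103442167-103443680 (Ifi27l2a, - strand). Gbp2 overlaps the antisense microRNA gene Mir6381, and the other 5 overlap no annotated gene.

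The deposited values are scaled scores, from which whole UMIs were recovered, and every level is in CPM of those. Bracketed intervals are exact 95% intervals and cover counting error only, not differences between mice or between cells. A gene was called between libraries when its CPM differed at least 2-fold. The libraries held 542 to 5502 cells, 23008 in all, with a median of 6300 to 10248 UMIs a cell, and 59 of 22948 barcode sequences (0.257%) occurred in more than 1 library. Cells were clustered without any interferon gene of the lists used here, and 24 of 27 clusters were named by markers into 12 classes, written with "-like". The 3 unnamed clusters are called by their leading genes Ltf, Naaa and Pf4. Endothelial-like cells, which normally lack CD45, made up 0.111% to 7.04% of the libraries. The adjacent tissue Tim3-KD library stood apart, with 542 cells of which 3.51% were mature neutrophil-like, against 28.97% to 36.5% in the other 5. Its B-like share was 36.2%, and its members' levels over all cells were read beside that mix.

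Over all cells of a library, Isg15 stood at 198 CPM in adjacent tissue Ctrl, 70.1 in adjacent tissue Tim3-KD, 198 in micrometastasis Ctrl, 130.4 in micrometastasis Tim3-KD, 137 in macrometastasis Ctrl and 165 in macrometastasis Tim3-KD. Ifit1, in the same order, measured 21.6, 12.3, 20.6, 22.7, 15.9 and 22.1 CPM. Rsad2 measured 46.9, 48.5, 37.6, 32.8, 82.1 and 65.2 CPM. Isg15 and Ifit1 were lowest in adjacent tissue Tim3-KD, whereas Rsad2 was highest in both macrometastasis libraries. Gbp2 measured 44.0, 15.9, 39.5, 35.5, 27.4 and 37.7 CPM. Slfn4 measured 187, 7.62, 188, 180.0, 98.8 and 118 CPM. Ifi27l2a measured 1004, 946, 970.1, 484, 676 and 742 CPM. Slfn4 varied most between libraries, through the single low value of adjacent tissue Tim3-KD, and the lowest Ifi27l2a level was that of micrometastasis Tim3-KD. In libraries of mixed cells a lower total cannot be told apart into fewer cells of a type and less RNA per cell, which is why the levels within classes follow.

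**Figure D1:**
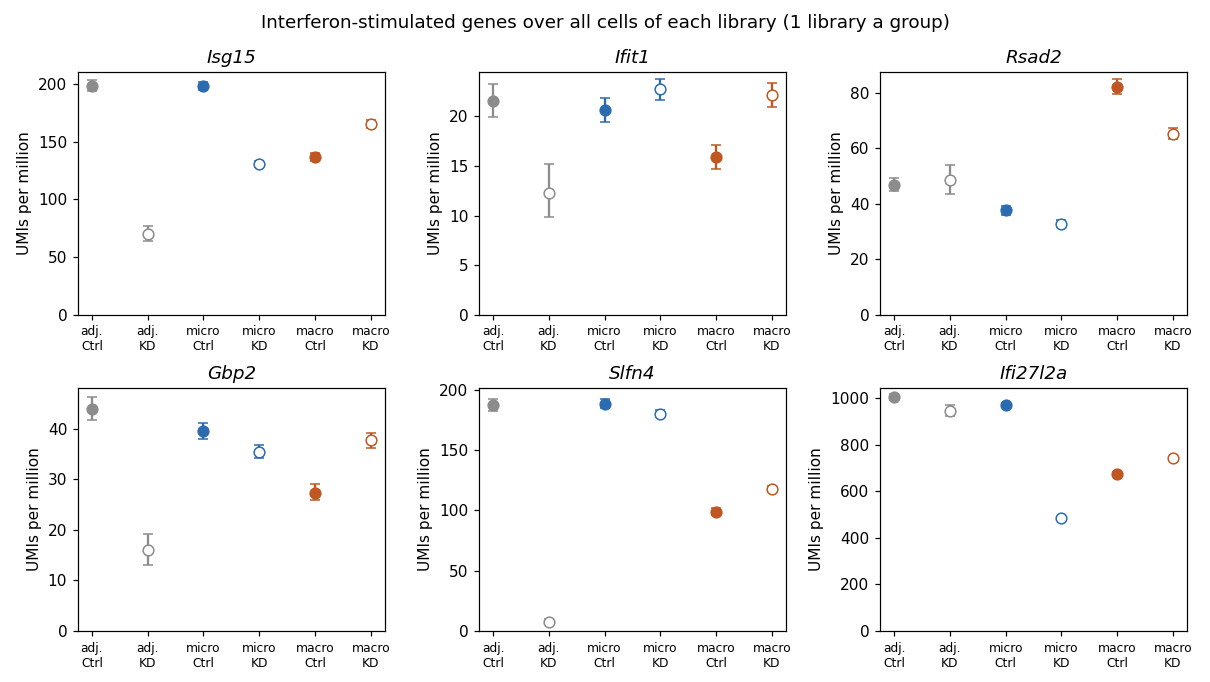
Levels of the 6 genes over all cells of each library, in CPM on linear axes from 0, with bars for exact 95% counting intervals. Grey, blue and orange stand for adjacent tissue, micrometastasis and macrometastasis, filled points for Ctrl and open points for Tim3-KD. Slfn4 sits at 7.62 in adjacent tissue Tim3-KD and between 98.8 and 188 in the other 5 libraries.

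Isg15 was carried mainly by mature neutrophil-like cells, the short-lived granulocytes of blood and inflamed tissue, which held 44.9% to 70.4% of its UMIs in the 5 libraries with enough of them. Its level in these cells was 1131 CPM in adjacent tissue Ctrl, 597 in micrometastasis Ctrl, 463 in micrometastasis Tim3-KD, 214 in macrometastasis Ctrl and 498 in macrometastasis Tim3-KD. Mature neutrophil-like cells ranked first in all of these but macrometastasis Ctrl. There endothelial-like cells [256 CPM, interval 233 to 282], plasmacytoid dendritic-like cells (232 CPM), monocyte-like cells (220 CPM) and mature neutrophil-like cells (214 CPM) followed one another with overlapping intervals between neighbours. Of the 148 Isg15 UMIs of these plasmacytoid dendritic-like cells, 99 lay in 1 of 73 cells, and without the 3 highest cells the class stood at 46.6 CPM. After every cell was thinned to 1500 UMIs, an Isg15 UMI was found in 66.0%, 44.8%, 43.2%, 16.2% and 31.4% of mature neutrophil-like cells, in the same order of libraries. In B-like cells, whose Isg15 level was 3.92 to 27.5 CPM, the thinned share was 0.768% to 4.23%. Median UMIs per cell before thinning were 4966 to 5914 in mature neutrophil-like and 3484 to 9590 in B-like cells. Neutrophil precursor-like cells were low throughout, at 2.76 to 30.9 CPM.

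Ifit1 was likewise highest in mature neutrophil-like cells in 4 of the 5 libraries that held enough of them. In mature neutrophil-like cells it measured 126 CPM in adjacent tissue Ctrl, 83.5 in micrometastasis Ctrl, 96.0 in micrometastasis Tim3-KD, 24.2 in macrometastasis Ctrl and 69.8 in macrometastasis Tim3-KD. Endothelial-like cells were the highest class for Ifit1 in macrometastasis Ctrl, at 67.2 CPM [55.4 to 80.8], and stood at 56.1 CPM in micrometastasis Ctrl, where the interval overlapped that of mature neutrophil-like cells. In B-like cells Ifit1 had no UMI in micrometastasis Ctrl and macrometastasis Tim3-KD, where the exact intervals reach up to 1.18 and 1.32 CPM.

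Rsad2 differed from Isg15 and Ifit1 in its order of classes. Kupffer-like cells, the resident macrophages of the liver sinusoid, were its highest class in all 5 libraries that held at least 50 of them. Rsad2 measured 149 CPM in Kupffer-like cells of adjacent tissue Tim3-KD, 156 in micrometastasis Ctrl, 209 in micrometastasis Tim3-KD, 267 in macrometastasis Ctrl and 169 in macrometastasis Tim3-KD. In mature neutrophil-like cells it measured 295 CPM in adjacent tissue Ctrl, 118 in micrometastasis Ctrl, 111 in micrometastasis Tim3-KD, 69.7 in macrometastasis Ctrl and 131 in macrometastasis Tim3-KD. The interval of Kupffer-like cells overlapped that of no next class in any of the 5 libraries. The cluster that held most Kupffer-like cells, led by Clec4f, had 216 CPM of Rsad2 over all libraries and a median of 10929 UMIs a cell. The smaller Kupffer-like cluster, led by Vsig4, had 28.9 CPM and a median of 4367 UMIs. Within single libraries the Clec4f and Vsig4 clusters measured 192 and 41.4 CPM in adjacent tissue Tim3-KD, 174 and 30.1 in micrometastasis Ctrl, 276 and 23.4 in macrometastasis Ctrl and 181 and 23.0 in macrometastasis Tim3-KD, from 6 to 19 UMIs in the Vsig4 cluster. Micrometastasis Tim3-KD had 4 cells of the Vsig4 cluster. Isg15 and Ifi27l2a did not separate these 2 clusters in that way, at 135 and 100.5 CPM of Isg15 and 1572 and 1958 CPM of Ifi27l2a.

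Gbp2 was highest in mature neutrophil-like cells in 4 of the 5 libraries that held enough of them, at 248 CPM in adjacent tissue Ctrl, 130.0 in micrometastasis Ctrl, 133 in micrometastasis Tim3-KD and 103 in macrometastasis Tim3-KD. In macrometastasis Ctrl it stood at 39.0 CPM, below monocyte-like cells at 49.99 CPM, with overlapping intervals. Trem2/Spp1 macrophage-like cells take their name from 2 genes of lipid-handling and scar-associated macrophages. Of the listed markers, 3 of this class and 6 of monocytes were at least 2-fold up in them. For Gbp2 these cells came second in both Tim3-KD lesions, at 122 CPM in micrometastasis and 78.0 CPM in macrometastasis. In micrometastasis Tim3-KD their interval overlapped that of mature neutrophil-like cells. In the Ctrl lesions the macrophage-like cells measured 36.6 and 34.0 CPM.

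Slfn4 was largely a gene of the neutrophil lineage. Mature neutrophil-like cells measured 563 CPM in adjacent tissue Ctrl, 538 in micrometastasis Ctrl, 497 in micrometastasis Tim3-KD, 285 in macrometastasis Ctrl and 405 in macrometastasis Tim3-KD. The unnamed cluster led by Ltf, a secondary-granule gene of maturing neutrophils, reached 450 to 640 CPM. Neutrophil precursor-like cells reached 48.1 to 128 CPM. All other classes stayed between 0.884 and 59.4 CPM, with the top value in endothelial-like cells of macrometastasis Tim3-KD, where 3 of 133 cells held 71.0% of the 31 UMIs. Thinned to 1500 UMIs, 27.8% to 48.2% of mature neutrophil-like cells had a Slfn4 UMI, against 0% to 1.41% of B-like and 0.156% to 1.60% of T-like cells.

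Ifi27l2a was spread over many classes. Monocyte-like cells, recruited from blood, measured 2773 CPM in adjacent tissue Ctrl, 2517 in micrometastasis Ctrl, 1633 in micrometastasis Tim3-KD, 2098 in macrometastasis Ctrl and 1662 in macrometastasis Tim3-KD. Trem2/Spp1 macrophage-like cells stood above them in both micrometastasis libraries. Without the 3 highest cells of each class the levels were 2527 against 2474 CPM in Ctrl and 1675 against 1608 in Tim3-KD. Plasmacytoid dendritic-like cells measured 1467 CPM in micrometastasis Ctrl and 1442 in macrometastasis Ctrl, likewise without their 3 highest cells. Kupffer-like cells measured 1751 CPM in adjacent tissue Tim3-KD, 1407 in micrometastasis Ctrl, 1071 in micrometastasis Tim3-KD, 1694 in macrometastasis Ctrl and 1664 in macrometastasis Tim3-KD. T-like cells measured 450 to 1372 CPM and B-like cells 427 to 802 CPM. Among the 4 T-like clusters the one led by Ctla4 and Tnfrsf4, genes of activated and regulatory T cells, reached 2034 CPM, and the naive-type cluster led by Lef1 and Il7r 428 CPM. Natural killer or ILC1-like cells were low, at 14.996 to 113 CPM. Mature neutrophil-like cells held 8.20% to 25.2% of the Ifi27l2a UMIs of a library, less than their share of Isg15 UMIs in each of the 5 libraries.

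**Figure D2:**
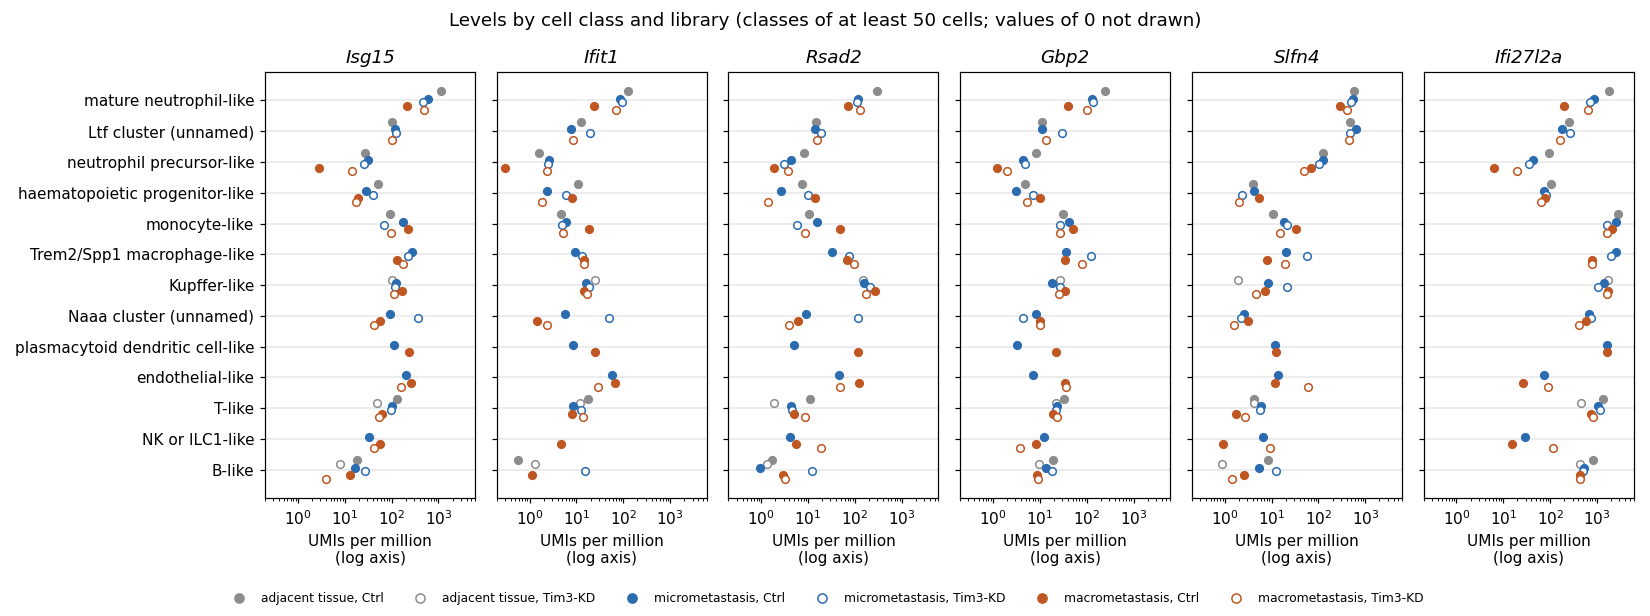
Level of each gene in CPM (log axis) in 13 classes of at least 50 cells, 1 point a library, coloured by site and open for Tim3-KD; values of 0 are not drawn. Mature neutrophil-like cells lie furthest right for Isg15, Ifit1 and Gbp2 in most libraries, Kupffer-like cells for Rsad2 outside adjacent tissue Ctrl, and Slfn4 is high only along the neutrophil lineage.

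Within the neutrophil lineage the members did not come up together. In the precursor-like cluster led by Ctsg and Elane, genes of primary granules, Slfn4 stood at 5.80 CPM and Isg15 at 10.99 CPM over all libraries. In the precursor-like cluster led by Fcnb, Slfn4 stood at 154 CPM and Isg15 at 31.1 CPM. In the Ltf cluster Slfn4 stood at 501 CPM and Isg15 at 113 CPM. The 3 mature clusters that were present on day 3 were led by Cstdc4, by Steap4 with Cxcr2, and by Csf1. Over all libraries Slfn4 stayed close to its Ltf level in them, at 494, 517 and 556 CPM, whereas Isg15 measured 326, 689 and 1050.3 CPM. Ifit1 measured 55.3, 115 and 134 CPM, Rsad2 43.1, 164 and 316 CPM, and Gbp2 74.9, 178 and 211 CPM in these 3 clusters. The libraries contributed unequally, with 61.0% of the Cstdc4 cluster from micrometastasis Tim3-KD, 37.1% of the Steap4 and Cxcr2 cluster from micrometastasis Ctrl and 44.0% of the Csf1 cluster from macrometastasis Tim3-KD. Within micrometastasis Ctrl, from the Ltf through the Cstdc4 and Steap4 to the Csf1 cluster, Isg15 measured 118, 329, 665 and 1064 CPM and Slfn4 640, 533, 494 and 660 CPM. In each of the 4 libraries with at least 50 cells in all of these clusters, Isg15, Ifit1, Rsad2 and Gbp2 had that same order of clusters. The remaining mature cluster, led by Bcl2l15, Arrdc4 and Saa3, was low for 5 members, with 75.8 CPM of Isg15, 10.9 of Ifit1, 19.9 of Rsad2, 17.4 of Gbp2 and 75.6 of Ifi27l2a, and kept 245 CPM of Slfn4. All but 20 of its 2399 cells came from the macrometastasis libraries, where it made up 85.3% of mature neutrophil-like cells of Ctrl and 48.8% of Tim3-KD. In the other libraries other clusters led, the Csf1 cluster with 53.2% in adjacent tissue Ctrl, the Steap4 and Cxcr2 cluster with 51.1% in micrometastasis Ctrl and the Cstdc4 cluster with 52.1% in micrometastasis Tim3-KD.

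**Figure D3:**
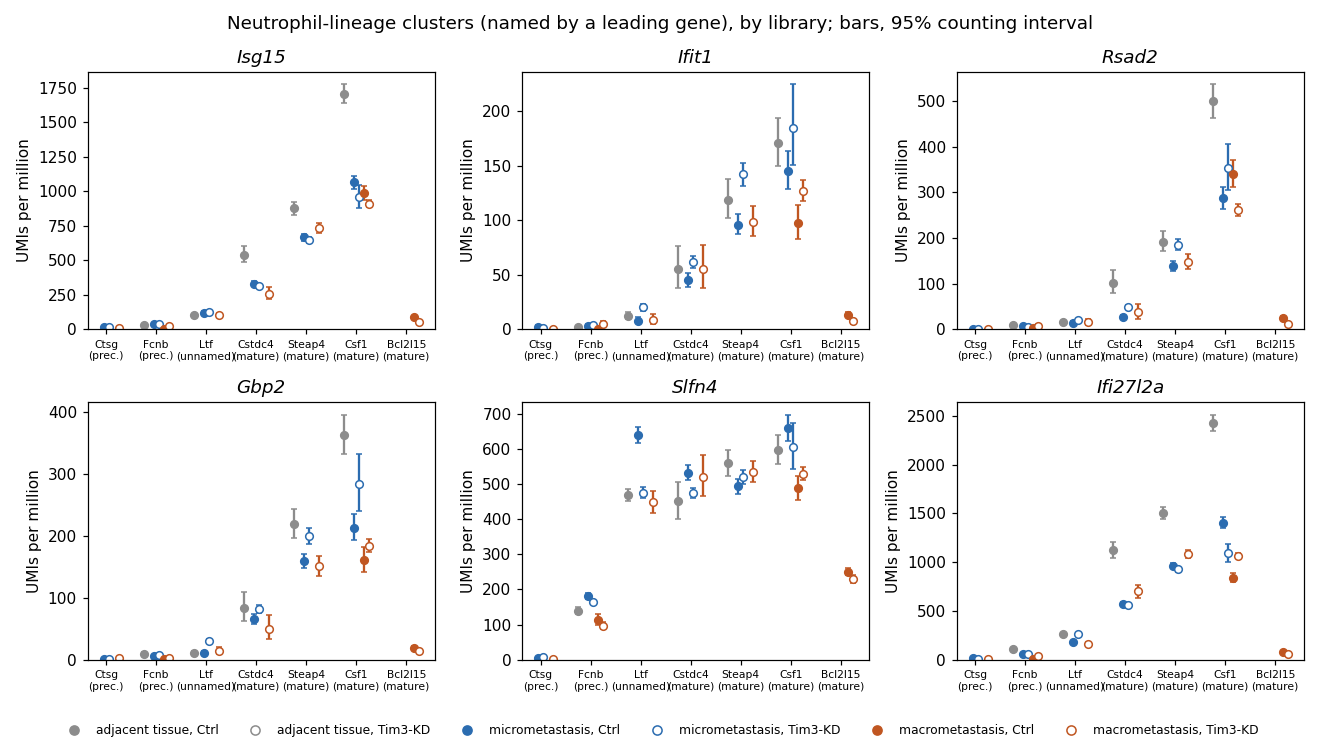
Levels of the 6 genes in the 7 clusters of the neutrophil lineage, in CPM on linear axes from 0, 1 point a library with its exact 95% counting interval, coloured by site and open for Tim3-KD. Slfn4 lies between 450 and 660 from the Ltf to the Csf1 cluster, Isg15 goes up to 1707 in the Csf1 cluster of adjacent tissue Ctrl, and both macrometastasis points of the Bcl2l15 cluster lie low for the 5 genes other than Slfn4.

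Single cells were compared after thinning to 1500 UMIs. At least 3 of the 6 genes were found together in 43.5% of mature neutrophil-like cells of adjacent tissue Ctrl (247 of 568, interval 39.4% to 47.7%). The share was 25.7% in micrometastasis Ctrl, 26.0% in micrometastasis Tim3-KD, 6.64% in macrometastasis Ctrl and 18.5% in macrometastasis Tim3-KD. None of the 6 was found in 55.4% of these cells in macrometastasis Ctrl and in 7.92% in adjacent tissue Ctrl. In the other classes such cells were at most 8.51%, in Trem2/Spp1 macrophage-like cells of micrometastasis Tim3-KD (6.05% in Ctrl), with 3.42% to 7.35% of Kupffer-like cells and at most 1.60% of T-like and 1.41% of B-like cells. In adjacent tissue Ctrl, Rsad2 was found in 34.1% of mature neutrophil-like cells with an Isg15 UMI and in 7.77% of those without, with a Pearson r of 0.43 over 568 cells of 1 library. In the other 4 libraries r was 0.32 to 0.40. In Kupffer-like cells of macrometastasis Ctrl, where 803 cells were compared, Rsad2 was found in 29.0% of cells with an Isg15 UMI and in 26.4% of those without (r = 0.0066).

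In adjacent tissue, 3 of the 6 genes were at least 2-fold lower in Tim3-KD than in Ctrl over all cells, where 9.31% of 4459 genes were lower and 33.8% higher. Slfn4 was 0.0407 times as high [0.0306 to 0.0532], Isg15 0.353 times [0.322 to 0.387] and Gbp2 0.363 times [0.297 to 0.440]. Ifit1 was 0.569 times as high, Ifi27l2a 0.942 times and Rsad2 1.03 times. Kupffer-like cells, the highest class for Rsad2, made up 19.6% of Tim3-KD (106 of 542 cells) and 1.72% of Ctrl (31 of 1803). The matrix's genes were themselves higher in Tim3-KD, by 0.59 on the log2 scale as a trimmed mean, and relative to that Ifit1 was called too (-1.41). Mature neutrophil-like cells, which held the most Isg15 and Gbp2 UMIs of Ctrl, numbered 19 of 542 cells in Tim3-KD and 568 of 1803 in Ctrl. The Ltf cluster held the most Slfn4 UMIs of Ctrl (2778, against 2052 in mature neutrophil-like cells) and numbered 0 cells in Tim3-KD and 213 in Ctrl. Only B-like and T-like cells reached 50 cells in both libraries. With these 2 classes weighted alike in both libraries, Isg15 stood at 0.382 times and Ifi27l2a at 0.423, where 7.8% of the 2219 genes of at least 100 UMIs in these classes were lower. Rsad2 at 0.279 times and Slfn4 at 0.330 were lower too but had fewer UMIs than that minimum. For Rsad2 B-like cells held 3 UMIs in each library and T-like cells 3 in Tim3-KD and 16 in Ctrl, of which 14 lay in 3 cells. Gbp2 at 0.603 times and Ifit1 at 0.776 were not called. In 7 of the 12 class and gene pairs both libraries together held at least 20 UMIs, and 3 of these were called, all lower, where 20.1% of all pairs of at least 20 UMIs were called. Without that minimum 6 of 12 were called, 5 lower and 1 higher. In T-like cells Isg15 measured 48.7 against 131 CPM (0.372 times, 0.283 to 0.486), with 55.0% of the 80 Tim3-KD UMIs in 3 cells, and the log2 ratio was -2.13 in place of -1.43 without the 3 highest cells of each library. Ifi27l2a measured 450 against 1372 CPM in T-like cells (0.328 times, 0.301 to 0.357). In Tim3-KD 3 cells held 42.6% of the 739 Ifi27l2a UMIs. Without the 3 highest cells of each library the levels were 274 and 1183 CPM. The Lef1 and Il7r cluster, low for Ifi27l2a, held 53.6% of the T-like cells of Tim3-KD and 30.9% of Ctrl. The weighting of classes did not cover this mix. Median UMIs a cell were 12505 and 7331 in T-like and 9590 and 5144 in B-like cells. T-like cells gave 14% of all genes at least 2-fold lower in this comparison. In B-like cells Isg15 measured 7.96 against 18.7 CPM, from 18 and 33 UMIs (0.426 times, 0.226 to 0.778), where 12.6% of genes were lower and 7.21% higher. The other called pairs, Slfn4 and Ifit1 in B-like and Rsad2 in T-like cells, had at most 3 UMIs in 1 library.

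In micrometastasis, Ifi27l2a alone was called over all cells, at 0.499 times its Ctrl level in Tim3-KD [0.492 to 0.505], where 18.2% of 2669 genes were at least 2-fold lower and 0.749% higher. The other 5 genes lay between 0.657 (Isg15) and 1.10 times (Ifit1). The median of the matrix's genes was itself lower in Tim3-KD, by 0.43 on the log2 scale. With both libraries weighted to the same mix of classes, the Ifi27l2a ratio was 0.787. Neutrophil precursor-like cells, with 42.9 CPM of Ifi27l2a in Ctrl and 35.0 in Tim3-KD and a median of 40340 and 32997 UMIs a cell, made up 5.33% of Ctrl and 17.3% of Tim3-KD cells. Trem2/Spp1 macrophage-like cells, with 2562 and 1971 CPM, made up 8.42% and 2.74%. B-like cells, whose 540.4 and 498 CPM lay below the 970.1 CPM of the Ctrl library, made up 12.7% and 1.38%. Within classes of at least 50 cells, 15 of 56 class and gene pairs of at least 20 UMIs were called, 13 higher and 2 lower in Tim3-KD, where 6.37% of all such pairs were higher and 6.31% lower. Without that minimum 17 of 60 were called, 15 of them higher.

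Monocyte-like cells held the 2 lower pairs of micrometastasis. Isg15 measured 69.3 CPM in Tim3-KD and 173 in Ctrl (0.3996 times, 0.365 to 0.437), and Rsad2 measured 5.91 and 15.5 CPM (0.382 times, 0.277 to 0.523), where 10.8% of genes were lower in these cells. In the cluster led by Thbs1 and Vcan, which held 60.5% of the monocyte-like cells of Tim3-KD and 86.7% of Ctrl, the ratios were 0.659 for Isg15 and 0.557 for Rsad2. The cluster led by F13a1 and Ly6c1, with a median of 24567 UMIs a cell, held 39.3% and 12.7%. The unnamed cluster led by Naaa, with Clec9a and class II genes of antigen-presenting dendritic cells among its leading genes, held the 3 largest higher ratios among pairs of at least 20 UMIs. Isg15 measured 370 CPM in Tim3-KD and 91.9 in Ctrl (4.02 times, 3.34 to 4.85), Ifit1 50.8 and 5.71 (8.89 times, 4.53 to 19.0) and Rsad2 114 and 8.83 (12.9 times, 7.66 to 22.9). These rested on 94 and 137 cells, and 3 cells held 51.5% of the 103 Rsad2 UMIs of Tim3-KD. Without the 3 cells of most Rsad2 UMIs in each library the levels were 57.0 and 1.59 CPM. For Ifit1, 3 cells held 45.7% of the 46 Tim3-KD UMIs and 72.7% of the 11 Ctrl UMIs. Without them Ifit1 measured 28.4 and 1.58 CPM. In this cluster 10.5% of genes were higher in Tim3-KD, and median UMIs a cell were 8939.5 in Tim3-KD and 13938 in Ctrl. With finer clusters there were 1 cluster led by Naaa and Clec9a (335 cells) and 1 led by Tbc1d4 with Clec10a (187 cells). Their shares in the 2 libraries were not compared.

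Trem2/Spp1 macrophage-like cells of micrometastasis had 122 CPM of Gbp2 in Tim3-KD and 36.6 in Ctrl (3.32 times, 2.65 to 4.16) and 57.5 and 20.1 CPM of Slfn4 (2.86 times, 2.07 to 3.93), where 16.5% of genes were higher. Thinned to 1500 UMIs, a Slfn4 UMI was found in 7.09% of these cells in Tim3-KD and 4.19% in Ctrl, against 1.41% and 1.39% of B-like cells. Unthinned the shares were 24.8% and 13.7% of the macrophage-like and 1.41% and 2.47% of the B-like cells. Median UMIs before thinning were 7841 and 10363 in the macrophage-like and 4233 and 3484 in the B-like cells. B-like cells had 12.2 and 5.42 CPM of Slfn4, in Tim3-KD from 4 UMIs of 1 cell. The part of free RNA or doublets in the macrophage-like Slfn4 was not tested. Rsad2 in these cells was 2.23 times as high, with 55.6% of its 90 Tim3-KD UMIs in 3 cells, and without the 3 highest cells of each library the log2 ratio was 0.33 in place of 1.15, under 2-fold. With finer clusters no cluster was named Trem2/Spp1 macrophage-like, so these ratios were not recomputed there. The Ltf cluster had 29.8 and 11.2 CPM of Gbp2 (2.65 times) and 19.9 and 7.84 CPM of Ifit1 (2.53 times), where 6.92% of genes were higher. Kupffer-like cells had 21.6 and 8.49 CPM of Slfn4, from 49 and 21 UMIs (2.54 times), where 4.66% of genes were higher, but the thinned share of these cells with a Slfn4 UMI was 2.77% and 3.27%, so no order was read from them. Haematopoietic progenitor-like cells were higher for Ifit1, Rsad2 and Gbp2 from 10 to 13 Ctrl UMIs, where 4.99% of genes were higher, and the 3 higher pairs of B-like cells (5.71% of genes) had 4 or 5 UMIs in Tim3-KD, with Slfn4 alone at 20 UMIs or more over both libraries. All 4 Slfn4 and all 4 Rsad2 UMIs of these B-like cells lay in 1 of 71 cells, and 4 of the 5 Ifit1 UMIs in 1 cell. Without the 3 highest cells of each library Slfn4 measured 0 CPM in Tim3-KD and 4.17 in Ctrl, so it did not stay higher. Mature neutrophil-like cells had no called member, with ratios of 0.775 for Isg15, 1.15 for Ifit1, 0.938 for Rsad2, 1.02 for Gbp2, 0.925 for Slfn4 and 0.817 for Ifi27l2a, where 7.84% of genes were called. The Csf1 cluster held 3.95% of these cells in Tim3-KD and 17.8% in Ctrl, and the Cstdc4 cluster 52.1% and 30.5%. The class ratios were not corrected for these shares, so they do not give the ratios within clusters. T-like and neutrophil precursor-like cells had no called member either, beside 10.5% and 6.02% of genes called.

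In macrometastasis no member was called over all cells, where 10.6% of 2641 genes were at least 2-fold lower and 2.27% higher. Ratios of Tim3-KD to Ctrl were 1.21 for Isg15, 1.39 for Ifit1, 0.794 for Rsad2, 1.38 for Gbp2, 1.19 for Slfn4 and 1.10 for Ifi27l2a. Within classes 22 of 56 pairs of at least 20 UMIs were called, 12 higher and 10 lower, where 5.37% of all such pairs were higher and 7.55% lower. Without that minimum 26 of 66 were called, 14 of them higher. In mature neutrophil-like cells Isg15 measured 498 CPM in Tim3-KD and 214 in Ctrl (2.32 times, 2.22 to 2.43), Ifit1 69.8 and 24.2 (2.88 times, 2.53 to 3.28), Gbp2 103 and 39.0 (2.63 times, 2.37 to 2.92) and Ifi27l2a 631 and 193 (3.26 times, 3.12 to 3.415). Rsad2 and Slfn4 were 1.88 and 1.42 times as high, and 3.57% of genes were higher in these cells. These ratios ran opposite within the Bcl2l15 cluster, where all 6 lay below 1, from 0.430 (Rsad2) to 0.916 (Slfn4). In the Csf1 cluster, which held 33.5% of mature neutrophil-like cells of Tim3-KD and 12.4% of Ctrl, the 6 ratios lay between 0.767 (Rsad2) and 1.30 (Ifit1). The class ratios thus went with the share of cells in each cluster, and whether the clusters or the tumour line set them was not tested.

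**Figure D4:**
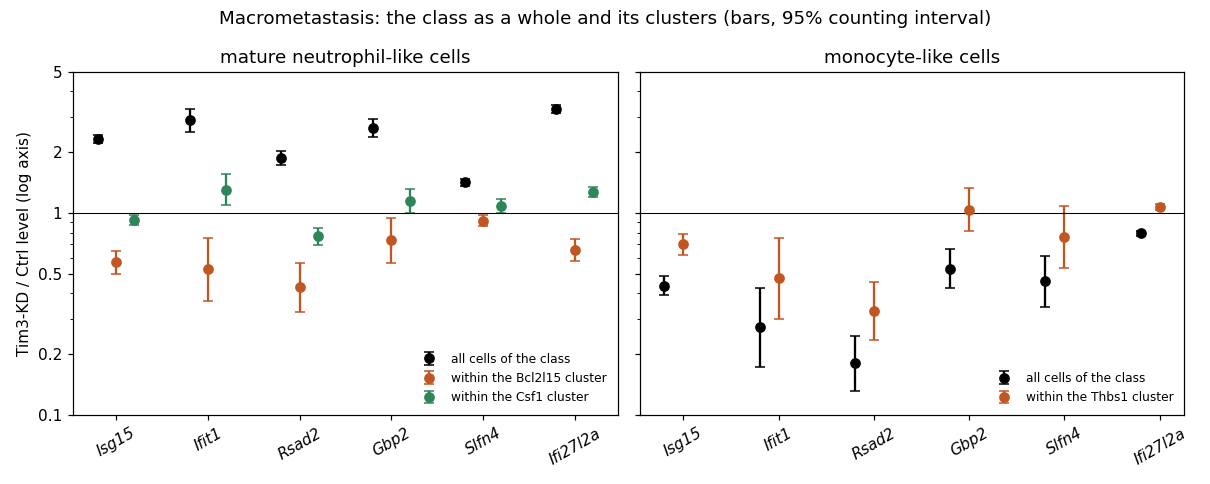
Ratio of Tim3-KD to Ctrl in macrometastasis for each gene (log axis, bars for exact 95% counting intervals), over mature neutrophil-like cells and within their Bcl2l15 and Csf1 clusters (left), and over monocyte-like cells and within their Thbs1 cluster (right). Over mature neutrophil-like cells all 6 ratios lie above 1 (1.42 to 3.26), and within the Bcl2l15 cluster all lie below 1 (0.430 to 0.916).

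Monocyte-like cells of macrometastasis ran the other way, with Isg15 at 96.2 CPM in Tim3-KD and 220 in Ctrl (0.437 times, 0.392 to 0.489). Ifit1 measured 5.12 and 18.9 CPM (0.271 times, 0.172 to 0.423), Rsad2 8.78 and 48.6 (0.181 times, 0.131 to 0.246) and Slfn4 15.1 and 32.9 (0.459 times, 0.344 to 0.614), where 16.7% of genes were lower. In Ctrl, 3 of 270 cells held 55.4% of the 139 Rsad2 UMIs and 3 held 39.4% of the 94 Slfn4 UMIs. Without the 3 highest cells of each library Slfn4 measured 11.1 and 20.2 CPM, under 2-fold, and the other 3 genes stayed called. Within the Thbs1 and Vcan cluster the ratios were 0.699, 0.475, 0.329 and 0.764, so Ifit1 and Rsad2 were at least 2-fold lower there too. That cluster held 71.4% of the monocyte-like cells of Tim3-KD and 77.4% of Ctrl, and the F13a1 and Ly6c1 cluster 27.3% and 3.33%. A monocyte-like cluster led by Cd36, Fabp4 and Adgre4, with no listed monocyte marker among its 10 leading genes, held 1.25% and 19.3%, and in Ctrl it stood at 172 CPM of Isg15, 59.2 of Rsad2 and 88.7 of Slfn4. Endothelial-like cells had 28.7 CPM of Ifit1 in Tim3-KD and 67.2 in Ctrl (0.428 times, 0.232 to 0.736) and 47.9 and 124 CPM of Rsad2 (0.385 times, 0.244 to 0.585), where 3.87% of genes were lower. Slfn4 and Ifi27l2a were higher in them, 4.99 and 3.44 times, from 31 and 47 Tim3-KD UMIs, where 5.67% of genes were higher. Here 3 of 133 Tim3-KD cells held 66.0% of the Ifi27l2a UMIs, and without the 3 highest cells of each library Ifi27l2a measured 32.8 and 19.9 CPM, under 2-fold, and Slfn4 18.1 and 6.63 CPM. Neutrophil precursor-like cells had 14.6 and 2.76 CPM of Isg15 (5.28 times, 2.69 to 11.8), from 119 and 9 UMIs, 20.0 and 6.44 CPM of Ifi27l2a (3.10 times, 1.96 to 5.14) and 2.33 and 0.307 CPM of Ifit1 (7.59 times, 1.21 to 315), from 19 UMIs and 1, where 7.7% of genes were higher. In Ctrl 3 of 78 cells held 81.0% of the 21 Ifi27l2a UMIs, and in Tim3-KD 3 of 179 held 62.0% of 163. Without the 3 highest cells of each library Ifi27l2a measured 7.73 and 1.27 CPM and Isg15 8.73 and 0.961 CPM. Trem2/Spp1 macrophage-like cells again had more Gbp2 in Tim3-KD, 78.0 against 34.0 CPM (2.30 times, 1.68 to 3.19), and more Slfn4, 19.6 against 8.18 CPM (2.40 times, 1.26 to 4.89), where 8.12% of genes were higher. The thinned share with a Slfn4 UMI was 1.95% and 0.909% in these cells and 0% and 0.166% in B-like cells. Kupffer-like and T-like cells had no called member, beside 9.73% and 6.39% of genes called, though Rsad2 in T-like cells went from 0.78 to -1.27 on the log2 scale without the 3 highest cells of each library. In B-like cells Isg15 measured 3.92 and 12.96 CPM, from 11 and 35 UMIs (0.303 times, 0.139 to 0.610), where 6% of genes were lower. In natural killer or ILC1-like cells Ifi27l2a measured 113 and 14.996 CPM (7.51 times, 4.27 to 14.0), with 63.3% of the 60 Tim3-KD UMIs in 3 cells, where 6.53% of genes were higher. Without the 3 highest cells of each library it measured 45.8 and 11.3 CPM. Haematopoietic progenitor-like cells were lower for Ifit1, Rsad2 and Slfn4, from 10 to 26 Ctrl UMIs in 53 cells, where 13.4% of genes were lower. All 15 Ifit1 and all 10 Slfn4 UMIs of Ctrl lay in 3 of these cells. Without the 3 highest cells of each library Ctrl had no UMI of either gene and Tim3-KD 0.714 CPM of Ifit1 and 1.31 of Slfn4, so neither stayed lower, while Rsad2 measured 0.593 CPM in Tim3-KD and 1.69 in Ctrl.

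**Figure D5:**
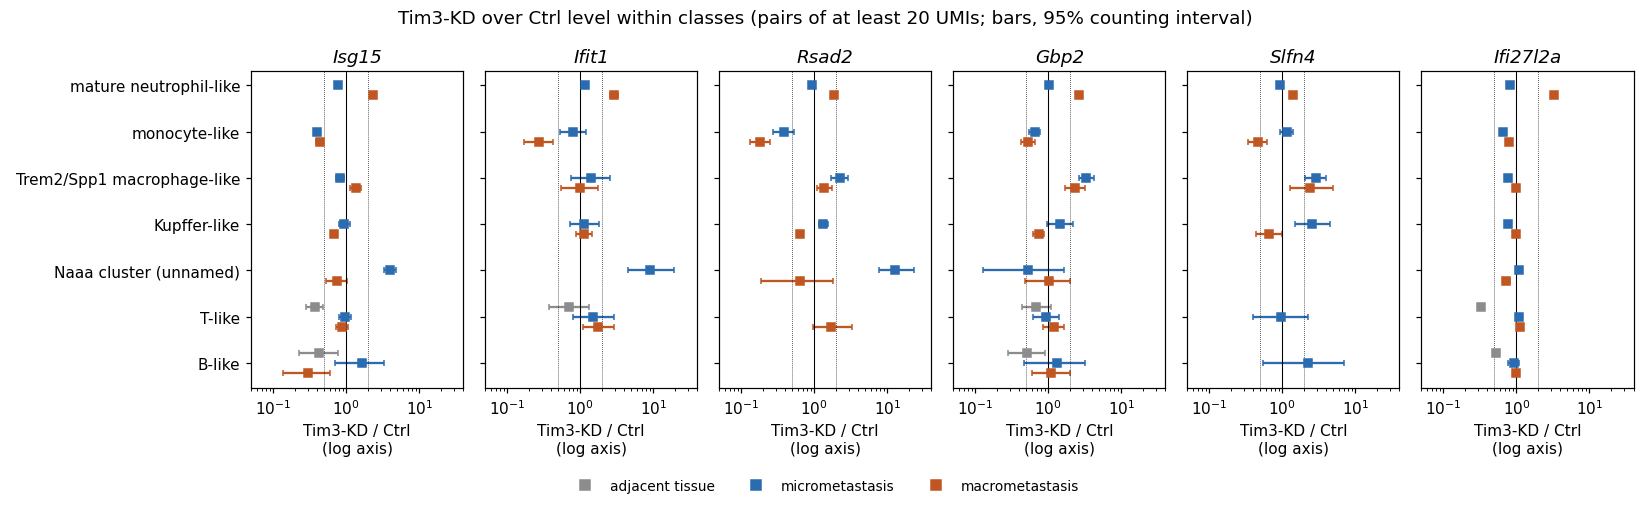
Ratio of Tim3-KD to Ctrl for each gene (panels, log axis) in 7 classes, as points with exact 95% counting intervals, grey for adjacent tissue, blue for micrometastasis and orange for macrometastasis; pairs under 20 UMIs are left out and dotted lines mark 2-fold. Isg15 and Rsad2 lie to the left in monocyte-like cells of both lesions, and Gbp2 and Slfn4 to the right in Trem2/Spp1 macrophage-like cells of both.

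Sites were compared in Ctrl only, on the recovered UMIs, since the authors scaled each site on its own. Between micrometastasis and adjacent tissue, both of day 3, no member was called over all cells, where 13% of 2283 genes were called, and the 6 ratios lay between 0.802 (Rsad2) and 1.01 (Slfn4). With both libraries weighted to the same mix of classes Rsad2 was called at 0.425 times, where 1.32% of genes were lower, and Isg15 stood at 0.598 and Gbp2 at 0.582 times. Within classes 7 of 40 pairs of at least 20 UMIs were called, all lower in micrometastasis, where 3.83% of all such pairs were lower. In mature neutrophil-like cells Rsad2 measured 118 CPM in micrometastasis and 295 in adjacent tissue (0.401 times, 0.369 to 0.435), and Ifi27l2a 879 and 1786 CPM (0.492 times, 0.4765 to 0.508), where 7.93% of genes were lower. The Csf1 cluster, with 17.8% and 53.2% of these cells, gave 0.575 for Rsad2 and 0.578 for Ifi27l2a, and the Steap4 and Cxcr2 cluster gave 0.718 and 0.642. Ifi27l2a in neutrophil precursor-like cells was 0.465 times as high, at 42.9 and 92.3 CPM, where 1.64% of genes were lower. In adjacent tissue 3 of 133 cells held 42.7% of its 585 UMIs, and without the 3 highest cells of each library the levels were 32.7 and 54.5 CPM, under 2-fold. The remaining 4 called pairs, Ifit1 and Rsad2 in T-like and in haematopoietic progenitor-like cells, had 10 to 42 UMIs a library, where 3.81% and 3.53% of genes were lower. In T-like cells the Rsad2 ratio turned from -1.39 to 0.59 on the log2 scale without the 3 cells of most UMIs in each library, and the Ifit1 ratio went from -1.04 to -0.49.

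Between macrometastasis and micrometastasis of Ctrl, day and lesion differ together. Over all cells Rsad2 alone was called, 82.1 against 37.6 CPM (2.18 times, 2.07 to 2.30), where 21.9% of 1786 genes were higher and 3.92% lower, and the median gene of the matrices was higher by 0.54 on the log2 scale. Relative to the trimmed mean of the matrix Rsad2 was not called (0.58 on the log2 scale). Slfn4 (-1.47), Isg15 (-1.08), Gbp2 (-1.07) and Ifi27l2a (-1.06) were then called lower. Kupffer-like cells, the highest class for Rsad2, made up 16.3% of cells in macrometastasis and 5.39% in micrometastasis, and with both libraries weighted to the same mix of classes the ratio was 1.12, and Ifit1 was called at 0.498 times in place of 0.769, where 1.96% of genes were lower. Within classes 26 of 62 pairs of at least 20 UMIs were called, 15 lower and 11 higher in macrometastasis, where 5.68% of all such pairs were lower and 12.2% higher. Without that minimum 30 of 72 were called, 17 of them lower. In mature neutrophil-like cells Isg15 was 0.359 times as high [0.343 to 0.376], Ifit1 0.2905 times [0.254 to 0.331], Gbp2 0.300 times [0.270 to 0.333] and Ifi27l2a 0.220 times [0.210 to 0.230], where 6.52% of genes were lower. The Bcl2l15 cluster held 85.3% of these cells in macrometastasis and 0.609% in micrometastasis. Within the Csf1 cluster the ratios lay between 0.599 (Ifi27l2a) and 1.18 (Rsad2). Monocyte-like cells had more Ifit1 (18.9 against 6.13 CPM, 3.08 times, 2.06 to 4.59) and Rsad2 (48.6 against 15.5 CPM, 3.14 times, 2.46 to 4.02), where 18.4% of genes were higher, and without the 3 cells of most UMIs in each library the Ifit1 log2 ratio was 0.84 in place of 1.62. The Thbs1 and Vcan cluster held 77.4% and 86.7% of these cells and gave ratios of 2.95 for Ifit1 and 2.62 for Rsad2, and the Cd36 cluster held 19.3% and 0.579%. Trem2/Spp1 macrophage-like cells had less Ifi27l2a, 791 against 2562 CPM (0.309 times, 0.291 to 0.327), less Isg15, 130 against 276 CPM (0.470 times, 0.404 to 0.545), and less Slfn4, 8.18 against 20.1 CPM (0.406 times, from 13 and 94 UMIs), where 11.8% of genes were lower. Rsad2 was higher in them, 68.6 against 32.7 CPM (2.09 times), where 15.8% of genes were higher, but 3 of 110 cells held 74.3% of its 109 macrometastasis UMIs, and without the 3 highest cells of each library the levels were 18.5 and 26.8 CPM. As above, finer clusters did not keep this class. Neutrophil precursor-like cells were lower for 5 members, with Isg15 at 2.76 and 30.9 CPM (0.0894 times, 0.0406 to 0.172), where 9.67% of genes were lower, and Ifit1, with 1 UMI in macrometastasis, was at -0.99 on the log2 scale without the 3 highest cells of each library. The macrometastasis level of Isg15 rested on 9 UMIs in 78 cells, 6 of them in 3 cells. Without the 3 highest cells of each library Isg15 measured 0.961 and 26.3 CPM. In plasmacytoid dendritic-like cells, the specialised producers of type I interferon, Rsad2 measured 118 and 4.98 CPM, but all 75 UMIs of macrometastasis lay in 3 of 73 cells, 73 of them in 1 cell, and 11.8% of genes were higher. Isg15 in the same cells measured 232 and 114 CPM, and 46.6 and 42.1 CPM without the 3 highest cells of each library. With the listed genes used for clustering, the log2 ratios of this class changed sign, to -0.54 for Isg15, -2.36 for Ifit1 and -0.63 for Rsad2.

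Other genes of the pathway were taken from lists of 77 further interferon-stimulated genes, of which 52 were in a matrix, and of 30 interferon-gamma GTPases and related genes, of which 23 were. Of 21 interferon ligand genes only Ifng was in a matrix, at 17.2 CPM in adjacent tissue Ctrl, 35.6 in adjacent tissue Tim3-KD, 16.5 in micrometastasis Ctrl, 9.74 in micrometastasis Tim3-KD, 27.4 in macrometastasis Ctrl and 21.6 in macrometastasis Tim3-KD. The type I interferon genes were therefore not analysed here, and 6 of 22 receptor, signalling and sensor genes were in a matrix. Of those tested over all cells in Tim3-KD against Ctrl, 2 of 4 were higher in adjacent tissue (33.8% of all genes), 2 of 5 lower in micrometastasis (18.2%) and 1 of 3 lower in macrometastasis (10.6%). Over all cells of adjacent tissue, 4 of 46 further interferon-stimulated genes were lower in Tim3-KD and 19 higher, with a median ratio of 1.71, and 11 of 20 interferon-gamma genes were higher, beside 33.8% of all genes. Within both classes compared there, most called genes of these lists were lower. T-like cells had 7 of 28 and 9 of 19 lower, with 0 and 1 higher, where 14% of all genes were lower and 6.4% higher. B-like cells had 7 of 25 and 5 of 12 lower, with 1 and 0 higher, where 12.6% of all genes were lower and 7.21% higher. Over all cells, Ifitm6, a neutrophil and monocyte gene of the interferon-induced transmembrane family, was lowest at 44.3 and 1718 CPM (0.0258 times), followed by Ifit1bl2 (0.0592 times) and Slfn1 (0.191 times). The macrophage receptor gene Siglec1 (19.5 times) and the GTPase genes Iigp1 (11.9 times) and Tgtp1 were highest, beside the Kupffer-like shares of 19.6% in Tim3-KD and 1.72% in Ctrl, whose part was not tested. Tgtp1 had 182 UMIs against 0 and has a near-identical copy, Tgtp2, with which reads may be split.

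Over all cells of micrometastasis, 8 of 40 further interferon-stimulated genes and 4 of 20 interferon-gamma genes were lower in Tim3-KD and none higher, with median ratios of 0.688 and 0.699, beside 18.2% of all genes. Ciita, the class II master regulator (0.212 times), the cytokine-signalling inhibitor Socs3 (0.350 times) and Ms4a4c (0.364 times) were lowest. Ifitm6 (1.34 times), the chemokine gene Cxcl10 (1.17 times) and Slfn1 (0.940 times) were highest. In the Naaa cluster 11 of 33 and 6 of 14 genes of these lists were higher and none lower, where 10.5% of all genes were higher. Trem2/Spp1 macrophage-like cells had 8 of 39 and 10 of 20 higher and none lower, where 16.5% of all genes were higher. Monocyte-like cells had 10 of 39 and 4 of 19 lower, with 0 and 1 higher, where 10.8% of all genes were lower and 5.61% higher.

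Over all cells of macrometastasis, 2 of 35 further interferon-stimulated genes and 3 of 19 interferon-gamma genes were lower in Tim3-KD and none higher, with median ratios of 1.00 and 0.686, beside 10.6% of all genes lower and 2.27% higher. Cxcl10 (0.354 times), the signalling inhibitor Socs1 (0.377 times) and the antiviral GTPase gene Mx2 (0.420 times) were lowest. The exonuclease gene Isg20 (1.44 times), Slfn1 (1.35 times) and Siglec1 (1.32 times) were highest. In monocyte-like cells 5 of 33 and 10 of 16 genes of the lists were lower and none higher, where 16.7% of all genes were lower. In mature neutrophil-like cells 9 of 25 further interferon-stimulated genes were higher and none lower, and of 16 interferon-gamma genes 3 were higher and 1 lower, where 3.57% of all genes were higher. Between macrometastasis and micrometastasis of Ctrl, 4 of 31 further interferon-stimulated genes were higher and 2 lower over all cells, and 8 of 17 interferon-gamma genes higher and none lower, where 21.9% of all genes were higher and 3.92% lower. Mature neutrophil-like cells had 17 of 24 further interferon-stimulated genes lower and 1 higher, and 6 of 13 interferon-gamma genes lower and 2 higher, where 6.52% of all genes were lower and 30.8% higher. Monocyte-like cells had 4 of 31 and 5 of 16 higher and none lower, where 18.4% of all genes were higher.

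Likeness of pattern was measured as Pearson r of log2(CPM + 10) over the classes of at least 50 cells in each library, up to 59 points that share libraries and depth. Among 5276 genes the closest were mostly genes held by the adjacent tissue matrix alone, with 10 points each. These were Por, Fosl2, Oaz2, Adprm and Rb1cc1 for Isg15 (r up to 0.92), Por, Atxn7l1, Rb1cc1, Mob3a and Oaz2 for Ifit1 (up to 0.92) and Gm47428, Entpd1, Por, Ptpn12 and Wbp1l for Rsad2 (up to 0.95). Gbp2 was closest to Rb1cc1 (0.93), Dhx40, Gbp2b, Parp10 and Gm31683. Slfn4 was closest to Cstdc5 (0.99), Chil1, Adam8, Tnfsf13b and Mrgpra2b, and Ifi27l2a to Zbp1 (0.92), Msl2, Sec24b, Tnfrsf1b and Eif2ak1. Restricted to the 1640 genes with all 59 points, a choice made after these values were seen, Isg15 and Ifit1 were closest to each other (r = 0.85), Rsad2 to Ifit3 (0.86), Gbp2 to Gbp2b (0.89), Slfn4 to the granule gene Chil1 (0.97) and Ifi27l2a to the cathepsin gene Ctss (0.75). Slfn4 and Ifi27l2a had the lowest r of the member pairs (-0.09).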

How the data were processed

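Per the submitters' processing notes, reads were trimmed with Trim Galore 0.4.3 and mapped with STAR 2.7.7a to GRCm38. Per the study's methods, UMIs were counted over exons and introns, which without a stated strand setting can mix antisense genes, cells were filtered, doublets called by Scrublet were removed and variable genes were selected. The authors deposited a score per gene and cell, scaled over both libraries of a site and capped at 10, not counts, although counts had been assumed in the design. The scores were inverted to whole UMIs and cell totals. All 6 genes' detected values came out whole within 0.05 (5016, 21365 and 17192 values by site, 1 at the cap), as did 88.9%, 88.5% and 98.8% of totals in the cells of lower depth, where chance gives 10%. The matrix genes held 14.7%, 11.3% and 13.1% of all UMIs.

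Cells were clustered with scanpy 1.11.5 (Leiden, resolution 1, 30 components, 15 neighbours) on shared genes without the listed interferon genes. Thresholds for naming clusters were set after the clustering was seen. No further doublet removal was run, and 2.06% to 6.46% of cells had a doublet score over 0.15. Classes needed 50 cells in both libraries, genes 100 UMIs over both libraries (20 in a class), and shares of cells used thinning to 1500 UMIs. Intervals are exact Poisson for levels, conditional Clopper-Pearson for ratios and binomial for shares. Calls are differences of at least 2-fold, with a floor of 3 UMIs in place of a count of 0. On simulated data of 4486 genes of adjacent tissue, 100% of the detected values under the cap came out equal to the simulated UMIs. In macrometastasis 100% of 50 genes were called at each of the simulated 3-fold and 4-fold changes. Motifs were sought on both strands. Alternatives are given in the closing section. Named list genes were, in each Tim3-KD comparison, the 3 of lowest and 3 of highest ratio, and the 5 of highest r per member. The members, lists and classes' markers were chosen with earlier results of these data known.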

Additional observations from a re-analysis of the deposited data

Results flagged for a closer look

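In haematopoietic progenitor-like cells the Tim3-KD to Ctrl ratio lay on opposite sides of 1 in micrometastasis and macrometastasis for 2 members, and the difference itself was not tested. Ifit1, the RNA-binding effector gene, was 2.58 times as high in Tim3-KD in micrometastasis (6.07 against 2.35 CPM) and 0.231 times in macrometastasis (1.88 against 8.12 CPM). Rsad2, the viperin gene, was 3.88 times as high in micrometastasis (10.0 against 2.59 CPM) and 0.1001 times in macrometastasis (1.41 against 14.1 CPM). In macrometastasis Ctrl, all 15 Ifit1 UMIs lay in 3 of 53 cells, and 3 cells held 23 of the 26 Rsad2 UMIs. Without the 3 highest cells of each library Ctrl had no Ifit1 UMI there and Tim3-KD 0.714 CPM, so the opposite sides did not hold for Ifit1, while Rsad2 stayed lower in Tim3-KD (0.593 against 1.69 CPM).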

How the results depend on the processing

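No paired analysis was possible because each group had a single library and no test was run. Over all cells, the count of members called changed in 4 comparisons. With levels averaged over cells, it was 5 lower in place of 3 in adjacent tissue, 0 in place of 1 in micrometastasis, 1 lower in place of 0 between micrometastasis and adjacent tissue, and 2 lower in place of 1 higher between macrometastasis and micrometastasis. Relative to the trimmed mean of the matrix, whose log2 shift was 0.59, -0.44, -0.27, 0.30 and 0.54 in the 5 comparisons, it was 4 lower in adjacent tissue, 0 in micrometastasis and 4 lower between macrometastasis and micrometastasis. With both libraries weighted to the same mix of classes it was 4 lower in adjacent tissue (without Gbp2, with Rsad2 and Ifi27l2a), 0 in micrometastasis, 1 lower between micrometastasis and adjacent tissue, and 1 lower in place of 1 higher between macrometastasis and micrometastasis. Without doublet scores over 0.15 it was 4 lower in adjacent tissue. Class and gene pairs called fell to 3 in adjacent tissue with at least 20 UMIs, and to 4 between micrometastasis and adjacent tissue without doublet scores over 0.15.

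Called ratios within classes that changed sign were few. With levels averaged over cells, the log2 ratio of Slfn4 in the Naaa cluster of macrometastasis was 0.37, and that of Ifit1 in haematopoietic progenitor-like cells between macrometastasis and micrometastasis was -0.12. With the listed genes used for clustering, plasmacytoid dendritic-like cells gave -0.54 for Isg15, -2.36 for Ifit1 and -0.63 for Rsad2 between these lesions. Without the 3 cells of most UMIs of a gene, an alternative added after seeing the data, Rsad2 in T-like cells between micrometastasis and adjacent tissue was 0.59, and between the lesions Ifi27l2a in endothelial-like cells was 1.41 and Rsad2 in Trem2/Spp1 macrophage-like cells -0.53. The cause was not tested. At Leiden resolution 2, 208 of the 223 class ratios that had a value stayed within their intervals and no called ratio changed sign. There Trem2/Spp1 macrophage-like cells had none, since no cluster took that name, and clusters led by Sdc4 (68.3% of cells from micrometastasis Ctrl) and Pf4 (41.3% from macrometastasis Tim3-KD), both with Trem2 among their leading genes, stayed unnamed.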
